A study of Ovis aries with 40 samples.

Results

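Distal lung from sheep fetuses without CFTR (CFTR-/-, called CF) was compared with distal lung from wild-type (WT) fetuses at 65 and 80 days of gestation. The libraries were taken by region, genotype and day, which gave 4 CF and 4 WT libraries, 2 of each genotype at each day, of 40 libraries in the series. The series holds bulk RNA-seq of proximal and distal lung from both genotypes through gestation to term, made from poly(A) RNA. CF fetuses were clones made by somatic cell nuclear transfer from a male fibroblast line in which exon 2 of CFTR had been disrupted, while WT fetuses came from natural breeding. Both were of the American Romney breed. No treatment of the fetuses is named for either group. The ewes of both groups were synchronised with a prostaglandin analogue, by protocols that differed. The CF libraries held 85773994 to 103139483 counted reads and the WT libraries 33049603 to 43700012, so genotype, cloning and depth cannot be told apart. The paper does not state the sex of the WT fetuses, so sex may differ between the groups too. The labels name a different animal for each of the 8 libraries, some with a shared stem in the name, so p-values measure the spread between these fetuses. Among CF fetuses that spread is between clones of the male line, not between unrelated animals.

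CFTR is a chloride and bicarbonate channel of epithelial membranes, and the fetal lung fills its lumen with fluid that epithelial chloride secretion drives. At the ages compared here the airways are still branching. Distal epithelial tips proliferate and receive WNT, FGF and BMP signals from the surrounding mesenchyme, while hedgehog ligand from the epithelium acts on mesenchymal cells, some of which become airway smooth muscle. In bulk tissue, fewer cells of a type and less RNA per cell cannot be told apart.

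Values are normalised CPM (read counts scaled to library size) after TMM scaling over the 8 libraries, in the order day 65 replicates 1 and 2, then day 80 replicates 1 and 2. Log2 fold changes are CF minus WT, from edgeR's quasi-likelihood test with day as a covariate, with p adjusted over all 18812 genes tested (Benjamini-Hochberg). In parentheses, a log2 fold change (log2FC) stands with its SE and the adjusted p. DEGs passed 0.001 in adjusted p and 0.58 in the size of the log2FC, and genes that passed 0.05 in adjusted p are named called. Coordinates are on Oar_v4.0. A library is also written as genotype, day and replicate, as in WT65-1. Where leaving out a library ended a call, those libraries stand in parentheses after the gene. The surfactant gene SFTPC, expressed in distal epithelium, was at 194 to 857 CPM in WT and 198 to 668 CPM in CF, and NKX2-1, a transcription factor of lung epithelium, was at 64.4 to 88.6 CPM in WT and 88.9 to 124 CPM in CF. The first principal component of the 8 libraries held 31.3% of the variance and placed the WT libraries between -57.6 and -26.9 and the CF libraries between 29.6 and 65.9. CF day 65 replicate 2 and WT day 65 replicate 2 lay apart from the other libraries on the second component, which held 23.1%, at -67.9 and -63.2 against -7.81 to 62.0.

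The targeted gene itself, CFTR (chr4:50644000-50864925), was measured at 37.5, 30.5, 43.9 and 46.3 CPM in WT and 21, 21.2, 29.8 and 36.4 CPM in CF. The groups did not overlap within either day, although CF day 80 replicate 2 was above WT day 65 replicate 2. The difference was a log2 fold change of -0.56 ± 0.12 (SE), adjusted p = 0.0175, or 1.48-fold lower RNA in CF, with 2069 to 3731 reads per CF library. Counts over the whole gene do not show a small change in exon 2. EPCAM, a surface marker of epithelium whose values were seen before it was chosen, moved by a like amount, at 192 to 222 CPM in WT and 117 to 162 CPM in CF (log2FC -0.58 ± 0.10, adjusted p = 0.00706). Values of other epithelial genes differed from this. NKX2-1 was at 64.4 to 88.6 CPM in WT and 88.9 to 124 CPM in CF (log2FC 0.40 ± 0.16, adjusted p = 0.115), SFTPC was not called (log2FC -0.36 ± 0.23, adjusted p = 0.315), and ETV4 was higher (log2FC 0.86 ± 0.15, adjusted p = 0.00856). The part of epithelial content in the CFTR difference was not tested. The CFTR call was lost without CF day 65 replicate 1 (adjusted p = 0.0660) or without WT day 80 replicate 2 (0.0571).

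In total, 71 genes were DEGs, of which 61 were higher in CF (0.324% of the genes tested) and 10 were lower (0.0532%). At an adjusted p of 0.05 there were 1954 higher genes (10.4%) and 891 lower genes (4.74%). The median log2 fold change of all genes was -0.00. All 71 DEGs had CPM that did not overlap between genotypes within either day, which was true of 17.0% of all genes in the higher and 10.2% in the lower direction. With every library thinned to the same depth, 60 genes were DEGs, 50 higher and 10 lower. All 71 DEGs of the main fit were then still at an adjusted p of 0.05 or less, and 2688 of the 2845 calls remained. The number of DEGs rested on single libraries: it was between 0 and 186 when 1 of the 8 was left out, with 186 without CF day 65 replicate 2 and 5 or fewer without any other. All 71 nonetheless stayed at an adjusted p of 0.05 or less without each library in turn, as did 806 of the 1954 higher and 155 of the 891 lower genes.

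The 12 higher DEGs with a gene symbol and the largest changes were of mixed function. They included GGT5 of glutathione metabolism, the channel genes KCND3 and CATSPER4, and the genes of the secreted products KCP, ECM1 and HGFAC. GGT5 (chr17:70693903-70702739), an enzyme that cleaves glutathione conjugates and leukotriene C4, was at 7.84, 9.9, 8.91 and 7.83 CPM in WT and 82.8, 77.3, 45.3 and 60.3 CPM in CF. That was 7.55-fold higher (log2FC 2.92 ± 0.17, adjusted p = 0.000538), and the lowest CF library lay far above the highest WT library. KCND3 (chr1:88199539-88422824), the pore subunit of a voltage-gated A-type potassium channel, was at 4, 2.59, 1.58 and 1.3 CPM in WT and 18.2, 16.9, 8.57 and 6.77 CPM in CF, with lower values at day 80 than at day 65 in both genotypes. Its change was 5.33-fold (log2FC 2.41 ± 0.21, adjusted p = 0.000705), and the groups did not overlap.

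KCP (chr4:92883866-92913694), a secreted protein that modulates BMP signalling, was at 12.2, 19.7, 13.6 and 11.9 CPM in WT and 87.3, 71, 78.4 and 65 CPM in CF, with a 5.29-fold difference (log2FC 2.40 ± 0.17, adjusted p = 0.000538). ECM1 (chr1:99312554-99318004), a secreted matrix glycoprotein, was at 8.06, 6.28, 7.36 and 5.82 CPM in WT and 31.6, 41.6, 23.5 and 24.9 CPM in CF (log2FC 2.11 ± 0.18, adjusted p = 0.000705). HGFAC, the serine protease that activates hepatocyte growth factor, was at 1.47 to 2.82 CPM in WT and 8.62 to 15 CPM in CF (log2FC 2.46 ± 0.20, adjusted p = 0.000681). For each of these 3 secreted products every CF library exceeded every WT library.

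MYBPC3, the cardiac myosin-binding protein C, was at 1.32, 1.55, 3.54 and 2.13 CPM in WT and 7.99, 8.46, 20 and 23.7 CPM in CF, with higher values at day 80 in both genotypes (log2FC 2.74 ± 0.23, adjusted p = 0.000705). TNFRSF25, a death-domain receptor of the tumour necrosis factor family, was at 5.28 to 5.96 CPM in WT and 20.7 to 37.9 CPM in CF (log2FC 2.19 ± 0.19, adjusted p = 0.000705). CATSPER4, named for a sperm cation channel subunit, had the largest increase of the 12, at 1.53, 2.45, 2.05 and 1.58 CPM in WT and 12, 17.2, 14.5 and 16.7 CPM in CF (7.95-fold, log2FC 2.99 ± 0.24, adjusted p = 0.000681). The remaining genes of this set were CCDC64 (log2 fold change 2.96), LMNTD2 (2.82), TMEM86B (2.68), a lysoplasmalogenase, and LCNL1 (2.08), a lipocalin-like gene. CCDC64 shares exonic bases with LOC105602914 and LMNTD2 with LRRC56 on the other strand, and the strand setting of the counting is not stated, so reads of the partners may be mixed.

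Only 3 lower DEGs carried a gene symbol. CDR1 (chrX:89397004-89399137), first described as an antigen in cerebellar degeneration, was at 153, 240.3, 139 and 133 CPM in WT and 11, 7.17, 13.1 and 12.1 CPM in CF, 15.2-fold lower in CF (log2FC -3.93 ± 0.27, adjusted p = 0.000538), with no WT library below 133 and no CF library above 13.1 CPM. SCRN3 (chr2:134504447-134535752), of the secernin family, was at 19.3, 15.9, 24.2 and 25.3 CPM in WT and 6.02, 5.41, 9.33 and 7.93 CPM in CF (log2FC -1.57 ± 0.14, adjusted p = 0.000705). COPG2 (chr4:94270534-94410724), a subunit of the COPI vesicle coat that lies next to the imprinted gene MEST, was at 46.5, 50.7, 42.6 and 46.4 CPM in WT and 20.2, 23, 19.7 and 20.6 CPM in CF (log2FC -1.16 ± 0.10, adjusted p = 0.000705). MEST itself was at 149 to 168 CPM in WT and 165 to 207 CPM in CF (log2FC 0.23 ± 0.10, adjusted p = 0.158).

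The other 7 lower DEGs have only LOC identifiers, and they were named after their values were seen. LOC106991688 (chr17:70563757-70565315) was at 1394, 1686, 905 and 922 CPM in WT and 184, 123, 97.3 and 144 CPM in CF, 8.72-fold lower (log2FC -3.12 ± 0.20, adjusted p = 0.000538). LOC101111669 (chr20:30634349-30644074) was at 6.72, 13.7, 5.25 and 5.68 CPM in WT and 0.377, 0.185, 0.127 and 0.136 CPM in CF, 38.3-fold lower, the largest size of change among the DEGs. LOC105604520, LOC101120961, LOC780463, LOC101109643 and LOC101118735 had log2 fold changes of -3.68, -3.28, -2.06, -1.24 and -1.12. In each of the 7 every CF library was below every WT library.

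**Figure D1:**
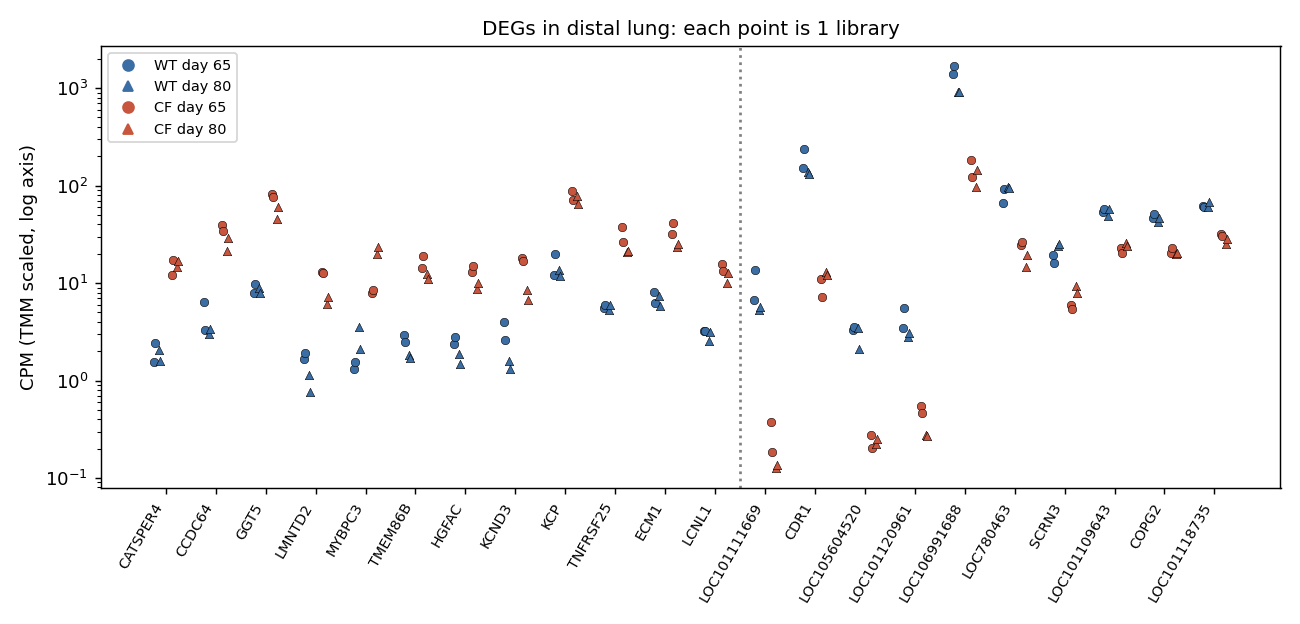
CPM of the 12 higher and 3 lower named DEGs and the 7 lower DEGs without a symbol, on a log axis, with 1 point for each library, WT in blue, CF in red, circles for day 65 and triangles for day 80; the dotted line parts higher from lower genes. CF points lie wholly above WT points on the left, as for GGT5, and wholly below on the right, as for CDR1 (at least 133 CPM in WT and at most 13.1 in CF).

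Genes called lower outside the DEG limits, also named after their values were seen, included genes of peptide, channel and receptor function. PENK, the precursor of enkephalin peptides, was at 5.48, 0.777, 8.91 and 17.9 CPM in WT and 0.119, 0.0411, 0.0845 and 0.0195 CPM in CF (log2FC -6.59 ± 0.93, adjusted p = 0.00352), and every CF library was below every WT library. KCNH5, a voltage-gated potassium channel, was at 10.6, 9.1, 9.61 and 15.6 CPM in WT and 1.01, 0.678, 3.75 and 1.52 CPM in CF (log2FC -2.89 ± 0.41, adjusted p = 0.00355). GSTA1-1, a glutathione transferase, was at 7.54 to 16.1 CPM in WT and 2 to 3.36 CPM in CF (log2FC -2.14 ± 0.24, adjusted p = 0.00135). DCC, the netrin receptor, was at 39.2 to 56 CPM in WT and 4.3 to 22.8 CPM in CF (log2FC -2.01 ± 0.36, adjusted p = 0.00863). AGTR2, the type 2 angiotensin receptor, was at 6.52 to 32.7 CPM in WT and 2.24 to 5.11 CPM in CF (log2FC -2.35 ± 0.45, adjusted p = 0.0114).

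Most smooth muscle genes were higher in CF. Of 13 genes tested, 9 (69.2%, against 10.4% of all genes) were called higher and 0 lower by edgeR (10 and 0 at an unadjusted p under 0.05, and 9 and 0 by DESeq2), and the median log2FC was 0.73. ACTA2, smooth muscle actin, was at 175, 114, 79.8 and 89.7 CPM in WT and 475, 513, 419.6 and 229 CPM in CF (log2FC 1.85 ± 0.21, adjusted p = 0.00143). MYH11, the smooth muscle myosin heavy chain, was at 184, 132, 125 and 134 CPM in WT and 425, 381, 450.0 and 267 CPM in CF (log2FC 1.41 ± 0.18, adjusted p = 0.00229). MYOCD, the coactivator that switches on contractile genes, was at 8.99, 3.22, 4.52 and 3.64 CPM in WT and 25.9, 22.2, 38.5 and 17.7 CPM in CF (log2FC 2.38 ± 0.38, adjusted p = 0.00536).

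ACTG2, the gamma smooth muscle actin, was 3.79-fold higher (log2FC 1.92 ± 0.21, adjusted p = 0.00136), and TAGLN, CNN1 and SMTN had log2 fold changes of 1.18, 1.67 and 0.73. MYLK and TPM2 completed the 9, and both calls, MYLK (any but CF65-2) and TPM2 (any but CF65-2), depended on single libraries. The summed CPM of the list was 1396 to 1639 in WT and 2067 to 2680 in CF, with no overlap, and 7 of the 9 stayed called without each library in turn. DES, the muscle intermediate filament gene, was at 59.1 to 94.1 CPM in WT and 61 to 153 CPM in CF and was not called (log2FC 0.43 ± 0.15, adjusted p = 0.0847).

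Genes of mesenchymal signalling moved in 1 direction where they were called. Of 26 tested, 7 (26.9%, against 10.4% of all genes) were called higher and 0 lower by edgeR (11 and 0 at an unadjusted p under 0.05, and 8 and 0 by DESeq2), with a median of 0.27. The count of higher genes ranged from 3 without WT80-1 to 12 without CF65-2. NOG, the secreted BMP antagonist noggin, was at 0.466, 0.489, 0.632 and 0.71 CPM in WT and 7.36, 2.9, 4.93 and 3.78 CPM in CF (8.28-fold, log2FC 3.05 ± 0.38, adjusted p = 0.00207). NOTUM, an enzyme that inactivates WNT proteins and is induced by WNT signalling, was at 2.55, 2.91, 4.87 and 2.46 CPM in WT and 12.8, 12.5, 8.66 and 25.6 CPM in CF (log2FC 2.22 ± 0.36, adjusted p = 0.00551). AXIN2, an intracellular WNT inhibitor and WNT target, was at 29.5, 28.7, 31.4 and 24.9 CPM in WT and 70.3, 41.3, 48.7 and 58.4 CPM in CF (log2FC 0.93 ± 0.17, adjusted p = 0.00966), and its exons overlap LOC105610544.

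Of 14 hedgehog pathway genes, a list written after values were seen, 5 (35.7%, against 10.4% of all genes) were higher and 0 lower by edgeR (6 and 1 at an unadjusted p under 0.05, and 5 and 1 by DESeq2). Their median was 0.48, and the higher count ranged from 2 without WT80-1 to 8 without CF65-2. Of the 5, PTCH1, GLI1 and GLI2 were also counted in the mesenchymal list. The receptor PTCH1, also a target of the pathway, was at 115 to 146 CPM in WT and 173 to 196 CPM in CF (log2FC 0.50 ± 0.10, adjusted p = 0.0159). BOC, a coreceptor of hedgehog ligand, was at 42.1 to 48.3 CPM in WT and 71.2 to 95.2 CPM in CF (log2FC 0.83 ± 0.11, adjusted p = 0.00256). The transcription factor GLI1 was at 24.5 to 33.4 CPM in WT and 38.4 to 73.9 CPM in CF (log2FC 1.00 ± 0.20, adjusted p = 0.0127). GLI2 was at 11.9 to 16.3 CPM in WT and 19.5 to 25.4 CPM in CF (log2FC 0.72 ± 0.16, adjusted p = 0.0179). The ligand SHH was at 7.18 to 8.6 CPM in WT and 3.08 to 15 CPM in CF and was not called (log2FC 0.36 ± 0.37, adjusted p = 0.532). BOC stayed called without each library in turn. Calls lost without a library were those of PTCH1 (WT80-1, WT80-2, CF80-2), GLI1 (WT80-1) and GLI2 (WT80-1, WT80-2, CF65-1, CF80-2).

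KIF7, the kinesin-4 protein that works in hedgehog signalling at the cilium, was at 21.6 to 25.6 CPM in WT and 37.3 to 56.9 CPM in CF (log2FC 1.11 ± 0.15, adjusted p = 0.00273). RNF43, a WNT-induced ubiquitin ligase that removes WNT receptors, was at 15.2 to 18.5 CPM in WT and 20.6 to 29.4 CPM in CF (log2FC 0.60 ± 0.13, adjusted p = 0.0159). With NOTUM and AXIN2 it made 3 higher and 0 lower of 29 WNT genes by edgeR (8 and 2 at an unadjusted p under 0.05, and 7 and 1 by DESeq2). NOTUM and AXIN2 were also counted in the mesenchymal list. The WNT list, too, was written after values were seen, its median was 0.26, and its share of higher calls, 10.3%, was near the 10.4% of all genes. The higher count ranged from 2 without WT80-1 to 9 without CF65-2. Mesenchymal FOXF1 was at 77.2 to 94.6 CPM in WT and 106 to 139 CPM in CF (log2FC 0.48 ± 0.11, adjusted p = 0.0207). FGF10, the mesenchymal growth factor for distal tips, was at 43.1 to 66.3 CPM in WT and 14.6 to 73.5 CPM in CF and was not called (log2FC -0.52 ± 0.27, adjusted p = 0.215), nor was WNT2 (log2FC -0.24 ± 0.21, adjusted p = 0.474). Single libraries carried the calls of RNF43 (WT80-1, WT80-2, CF80-2) and FOXF1 (WT80-1, CF65-1, CF80-2).

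**Figure D2:**
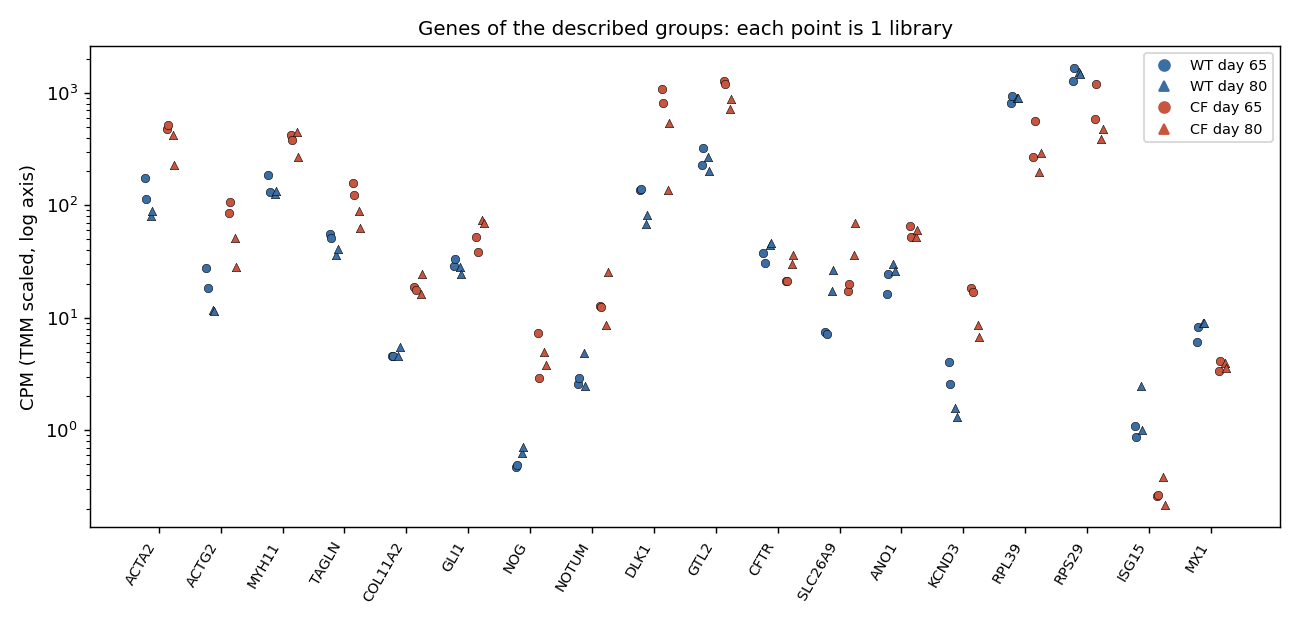
CPM of 18 genes from the groups described, on a log axis, with 1 point for each library, WT in blue, CF in red, circles for day 65 and triangles for day 80. ACTA2 lies between 79.8 and 175 CPM in WT and between 229 and 513 CPM in CF, while RPS29, ISG15 and MX1 lie lower in CF.

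Matrix and cartilage genes were called mostly in the higher direction. Of 33 collagen and elastic fibre genes 6 (18.2%, against 10.4% of all genes) were higher and 0 lower by edgeR (9 and 1 at an unadjusted p under 0.05, and 7 and 1 by DESeq2). Their median was 0.29. COL6A1, a chain of microfibrillar collagen VI, was at 433 to 578 CPM in WT and 735 to 1016 CPM in CF (log2FC 0.77 ± 0.14, adjusted p = 0.0091), and it was the member that stayed called without each library. COL4A1, a basement membrane collagen, was at 1033 to 1353 CPM in WT and 1510.0 to 2125 CPM in CF (log2FC 0.71 ± 0.16, adjusted p = 0.0195). LTBP2, of the elastic microfibrils, was at 29 to 46.8 CPM in WT and 58.4 to 115 CPM in CF (log2FC 1.24 ± 0.25, adjusted p = 0.0146). Single libraries carried the calls of COL4A1 (WT80-1, WT80-2, CF65-1, CF80-2) and LTBP2 (WT80-1, WT80-2, CF65-1), and the count of higher members ranged from 1 without WT80-2 to 12 without CF65-2.

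Of 11 cartilage genes 4 were higher and 1 lower, or 36.4% and 9.09% against 10.4% and 4.74% of all genes, with a median of 0.76. The count of higher members was 1 without CF80-2 and 2 to 4 without any other library, and COL11A2 alone stayed called throughout. COL11A2, a cartilage fibrillar collagen and a DEG, was at 4.58, 4.61, 4.52 and 5.44 CPM in WT and 18.6, 17.7, 16.1 and 24.3 CPM in CF (log2FC 2.00 ± 0.18, adjusted p = 0.000705), though its exons overlap LOC106991802 on the same strand. COL2A1, the main cartilage collagen, was at 263 to 387 CPM in WT and 434 to 482 CPM in CF (log2FC 0.51 ± 0.14, adjusted p = 0.0371). SOX6, a transcription factor of chondrocytes, moved the other way, at 7.51 to 8.6 CPM in WT and 4.09 to 5.71 CPM in CF (log2FC -0.71 ± 0.18, adjusted p = 0.0326). Calls lost without a library were COL2A1 (any but WT65-2 and CF65-2) and SOX6 (any but WT65-1 and CF65-2). The summed CPM of the list was 416 to 495 in WT and 627 to 929 in CF.

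Among endothelial genes 5 of 22 were higher (22.7%) and 1 lower (4.55%), against 10.4% and 4.74% of all genes, with a median of 0.27. The higher count was 3 without CF80-2, and calls lost were SOX17 (CF65-1, CF80-2) and SOX18 (CF80-2). VWF, the clotting factor stored in endothelial cells, was at 78.7 to 114 CPM in WT and 189.7 to 229.7 CPM in CF (log2FC 1.10 ± 0.15, adjusted p = 0.00272). ROBO4, an endothelial guidance receptor, was at 38.7 to 59.5 CPM in WT and 89.3 to 118 CPM in CF (log2FC 0.96 ± 0.16, adjusted p = 0.00643). EDNRB, the endothelin B receptor, was at 54.4 to 83.4 CPM in WT and 96.5 to 155 CPM in CF (log2FC 0.91 ± 0.16, adjusted p = 0.00801). LYVE1, a receptor of lymphatic endothelium, was lower (log2FC -1.35 ± 0.32, adjusted p = 0.0243), a call that WT65-2, WT80-1 and WT80-2 each carried. PECAM1, an endothelial adhesion molecule, was at 217 to 281 CPM in WT and 225 to 258 CPM in CF (log2FC -0.04 ± 0.12, adjusted p = 0.837).

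Among integrins, 6 of 30 were higher, against 10.4% of all genes, and 0 lower by edgeR (7 and 1 at an unadjusted p under 0.05 and by DESeq2). Their median was 0.12. ITGA10, a collagen receptor chain and a DEG, was at 5.87, 5.76, 5.4 and 6.13 CPM in WT and 17.3, 17.5, 16.6 and 15.8 CPM in CF (log2FC 1.54 ± 0.14, adjusted p = 0.00073). ITGA7, a laminin receptor chain of muscle, was at 9.79 to 13.7 CPM in WT and 21.8 to 42 CPM in CF (log2FC 1.41 ± 0.18, adjusted p = 0.00211), with exons that overlap METTL7B. Of 19 genes in the list of lung region factors and HOX genes, 3 (15.8%, against 10.4% of all genes) were higher and 0 lower by edgeR (5 and 0 at an unadjusted p under 0.05, and 4 and 0 by DESeq2). These were HOXA4 (log2FC 1.07 ± 0.18, adjusted p = 0.00747), HOXD3 (log2FC 2.08 ± 0.40, adjusted p = 0.0119) and HOXC6 (log2FC 2.73 ± 0.56, adjusted p = 0.0151), the last of which was lost without single libraries, HOXC6 (WT80-1, WT80-2, CF65-1). The count of higher integrins fell to 3 without WT65-2.

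Of 9 genes examined in and beside the imprinted DLK1-GTL2 region on chromosome 18, which was chosen after its values were seen, 5 were called, all higher in CF, where 10.4% of all genes were. DLK1 (chr18:64230268-64238281), a Notch-family ligand expressed from the paternal allele, was at 137, 138, 68.7 and 82.7 CPM in WT and 1085, 806, 137 and 535 CPM in CF (5.52-fold, log2FC 2.47 ± 0.38, adjusted p = 0.00476). GTL2 (chr18:64335882-64362055), the maternally expressed long non-coding RNA known as MEG3 in humans and a DEG, was at 229, 319.9, 269.8 and 202 CPM in WT and 1279, 1199, 723 and 884 CPM in CF (log2FC 1.97 ± 0.17, adjusted p = 0.000705). LOC105606646 (chr18:64386537-64494526), also a DEG, was at 30.2, 36.8, 28.4 and 24.9 CPM in WT and 95.6, 85.1, 81.3 and 89.4 CPM in CF (log2FC 1.56 ± 0.11, adjusted p = 0.000547).

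CF exceeded WT in all libraries for GTL2 and LOC105606646, whereas DLK1 in CF day 80 replicate 1 lay within the range of the WT libraries. BEGAIN (chr18:63997436-64033776), at the edge of the region, was at 16.8, 20, 13.6 and 16.3 CPM in WT and 68.7, 60, 20.5 and 37.4 CPM in CF (log2FC 1.38 ± 0.24, adjusted p = 0.00784). RTL1 (chr18:64382318-64406185), a paternally expressed retrotransposon-derived gene that starts beyond GTL2, was at 2.19, 2.22, 0.885 and 1.11 CPM in WT and 7.31, 6.32, 0.845 and 0.79 CPM in CF and was not called (log2FC 0.70 ± 0.41, adjusted p = 0.277). Also not called were LOC106991747 (log2FC 1.47 ± 0.48, adjusted p = 0.0716), MIR3955 (log2FC 0.37 ± 1.05, adjusted p = 0.834) and MIR323C (log2FC 1.23 ± 1.24, adjusted p = 0.529). LOC105603269 (chr18:65092150-65095126) was at 0 to 0.11 CPM in WT and 0.253 to 0.944 CPM in CF (log2FC 3.18 ± 0.71, adjusted p = 0.0197), a call lost without WT65-2, CF65-1 or CF80-2. LOC105606646 overlaps the span of RTL1, which limits how the reads of the pair can be parted. Of 26 imprinted genes tested, 3 were higher and 1 lower, with a median of 0.13, and these shares of 11.5% and 3.85% were near the 10.4% and 4.74% of all genes. The higher genes were DLK1, GTL2 and L3MBTL1, whose call was lost with the replicate block (adjusted p = 0.0648) and without any library but WT65-1 and CF65-2, and their count ranged from 2 without WT65-2 to 5 without CF65-2. The lower gene was CDR1, on the X chromosome.

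Ion transport genes moved in both directions. Of 19 anion transport genes, 6 were called higher (31.6%) and 2 lower (10.5%), against 10.4% and 4.74% of all genes, with a median of 0.15. The higher count was 3 without CF80-2. SLC26A9 (chr12:2935470-2963781), an epithelial chloride transporter and channel, was at 7.46, 7.14, 17.2 and 26.4 CPM in WT and 17.3, 19.8, 36.3 and 69.7 CPM in CF (log2FC 1.31 ± 0.22, adjusted p = 0.00656), with higher values at day 80 in both genotypes and no overlap within either day. ANO1 (chr21:46438353-46544132), the calcium-activated chloride channel, was at 16.4, 24.7, 30 and 26.2 CPM in WT and 65.8, 52.2, 52.4 and 60.6 CPM in CF (log2FC 1.26 ± 0.18, adjusted p = 0.00323), and no WT library reached the lowest CF library.

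SLC4A2, a chloride and bicarbonate exchanger, was at 48.1 to 53.3 CPM in WT and 67.2 to 86.9 CPM in CF (log2FC 0.70 ± 0.11, adjusted p = 0.00477). SLC26A6, also an anion exchanger, was at 5.18 to 10.3 CPM in WT and 11.1 to 18.6 CPM in CF (log2FC 0.85 ± 0.16, adjusted p = 0.012). The other 2 higher members were SLC4A7 and CLCN2. CLCA1, a protein secreted by mucous cells that regulates calcium-activated chloride current, was at 43.6, 86, 28.1 and 60.3 CPM in WT and 6.98, 7.33, 14 and 1.75 CPM in CF (log2FC -2.83 ± 0.58, adjusted p = 0.0147). Calls lost without a library were SLC26A6 (CF80-2), SLC4A7 (WT80-1, WT80-2, CF65-1, CF80-2), CLCN2 (any but WT65-1 and CF65-2) and CLCA1 (WT80-2, CF65-1). SLC12A2, which loads chloride into secreting cells, was at 173 to 288 CPM in WT and 197 to 343 CPM in CF and was not called (log2FC 0.12 ± 0.10, adjusted p = 0.464). ANO1 is also expressed in smooth muscle, whose genes were higher in the same libraries, and the part of this in its value was not tested.

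Among genes of sodium absorption, ATP1B1, the beta subunit of the sodium pump, was at 249 to 288 CPM in WT and 143 to 220.0 CPM in CF (log2FC -0.57 ± 0.13, adjusted p = 0.0194), a call lost without CF65-1. The epithelial sodium channel subunits SCNN1A (log2FC -0.27 ± 0.41, adjusted p = 0.686) and SCNN1B (log2FC -0.70 ± 0.27, adjusted p = 0.114) were not called. Exons of ATP1B1 overlap NME7 and those of SCNN1A overlap LOC106991088. Of 81 potassium channel genes, 8 were higher and 2 lower, with a median of 0.27, and these shares of 9.88% and 2.47% did not exceed the 10.4% and 4.74% of all genes. The count of higher channels ranged from 3 without CF80-2 to 10 without CF65-2. KCNH2, the hERG channel, was at 3.32, 3.08, 2.09 and 1.51 CPM in WT and 15.9, 14.8, 5.3 and 8.76 CPM in CF (log2FC 2.12 ± 0.23, adjusted p = 0.00134). KCNIP2, an auxiliary subunit of channels of the KCND3 kind, was at 6.74, 7.2, 5.47 and 5.04 CPM in WT and 16.5, 17.3, 20.3 and 19.7 CPM in CF (3.04-fold higher, adjusted p = 0.00130).

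Of 295 solute carrier genes, 38 were higher (12.9%) and 7 lower (2.37%), against 10.4% and 4.74% of all genes, with a median of 0.10. Of these, 16 and 2 stayed called without each library in turn. The members with the smallest adjusted p were the fatty acid transport protein SLC27A5 (log2FC 1.96 ± 0.20, adjusted p = 0.00101), SLC26A10 (log2FC 2.26 ± 0.23, adjusted p = 0.00106), the amino acid transporter SLC43A1 (log2FC 1.33 ± 0.13, adjusted p = 0.001) and the anion exchanger SLC4A3 (log2FC 1.24 ± 0.13, adjusted p = 0.00126). SLC27A6, of the same family as SLC27A5, moved the other way (log2FC -1.61 ± 0.26, adjusted p = 0.00551).

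**Figure D3:**
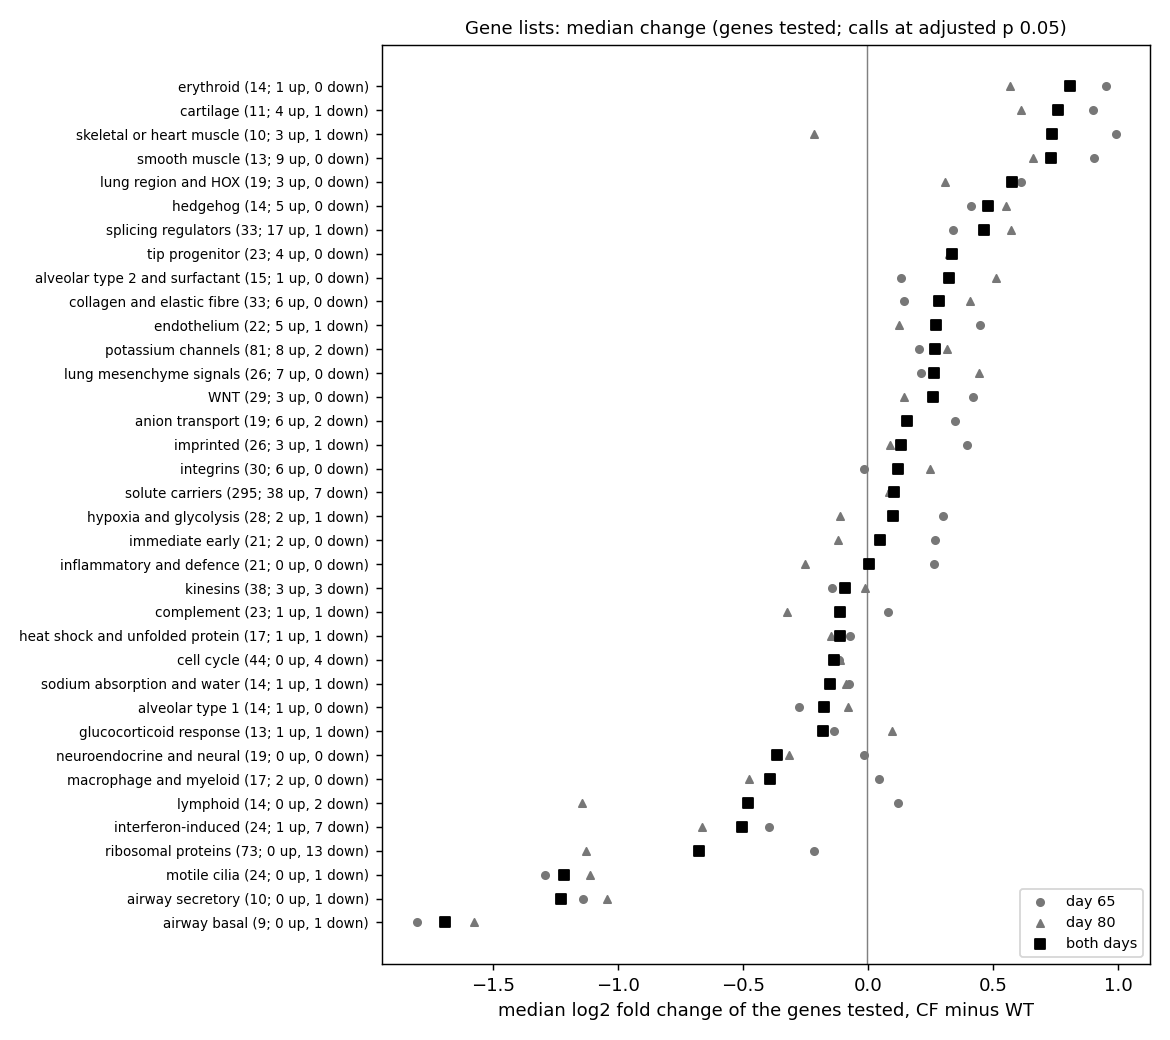
Median log2 fold change (CF minus WT) of the genes tested in each list with 9 or more, with squares for both days, circles for day 65 and triangles for day 80, and a grey line at the median of all genes; beside each name are the genes tested and the calls up and down. Smooth muscle lies at 0.73 and ribosomal proteins at -0.68, where day 80 (-1.13) lies further from the line than day 65 (-0.22).

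Of 33 splicing regulators, a list written after values were seen, 17 were higher (51.5%) and 1 lower (3.03%), against 10.4% and 4.74% of all genes, by edgeR (20 and 2 by DESeq2), with a median of 0.46. ARGLU1, a splicing and transcription coregulator and a DEG, was at 163, 144, 143 and 126 CPM in WT and 325, 365, 301 and 348 CPM in CF (log2FC 1.22 ± 0.11, adjusted p = 0.000705). CCNL2, a cyclin that works with splicing kinases and a DEG, was at 109, 114, 98.5 and 101 CPM in WT and 207, 202, 195 and 202 CPM in CF (log2FC 0.94 ± 0.08, adjusted p = 0.000705). The kinase CLK2 (log2FC 0.82 ± 0.10, adjusted p = 0.0021), whose exons overlap HCN3, and the splicing factors SRSF4 (log2FC 0.92 ± 0.11, adjusted p = 0.00167) and SRSF5 (log2FC 0.71 ± 0.09, adjusted p = 0.00229) were higher too. PRPF38B, of the spliceosome, was the lower member (log2FC -0.38 ± 0.10, adjusted p = 0.0335). This call was lost without any library but WT65-1 and CF65-2. Of the 17 higher genes, 12 stayed called without each library in turn.

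Calls among ribosomal protein genes were all in the lower direction, and their number moved with single libraries. All 73 tested had a negative log2FC, with a median of -0.68. Of these, 13 (17.8%, against 4.74% of all genes) were called lower and 0 higher by edgeR (51 and 0 at an unadjusted p under 0.05, and 50 and 0 by DESeq2). RPL39, a small protein of the large subunit, was at 809, 929, 904 and 893 CPM in WT and 269.7, 562, 197 and 289 CPM in CF (log2FC -1.47 ± 0.27, adjusted p = 0.00964), and it was the 1 gene of the 13 that stayed called without each library in turn. RPS29, of the small subunit, was at 1269, 1666, 1522 and 1464 CPM in WT and 582, 1186, 387 and 474 CPM in CF (log2FC -1.26 ± 0.29, adjusted p = 0.0215). Its call was lost without WT80-1, WT80-2, CF65-1, CF80-1 or CF80-2. The summed CPM of the list was 99174, 123569, 116595 and 109291 in WT and 73623, 118547, 46569 and 58479 in CF.

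CF day 65 replicate 2 thus lay within the WT range for this sum, and the other CF libraries lay below it. Without that library 67 of the 73 were called lower, where the lower calls among all genes went from 891 to 1858. Without WT day 80 replicate 1, WT day 80 replicate 2, CF day 65 replicate 1, CF day 80 replicate 1 or CF day 80 replicate 2, 1 of the 73 was called. The median was -0.22 at day 65 and -1.13 at day 80. In the third of genes with the shortest exonic length (84 to 2046 bases) 7.21% were higher and 6.89% lower, against 11.7% and 2.98% in the third with the longest. With the trend on length removed, 43 ribosomal protein genes were called lower with a median of -0.52, and 2080 of all genes were lower, against 891.

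Interferon-induced genes were lower where they were called, with 1 exception. Of 24 tested, 7 (29.2%, against 4.74% of all genes) were lower and 1 higher by edgeR (10 and 1 by DESeq2), with a median of -0.50, and their summed CPM was 504 to 628 in WT and 409 to 491 in CF. CXCL9, a chemokine induced by interferon gamma, was at 3.67, 15.3, 13.3 and 4.87 CPM in WT and 1.55, 2.01, 1.03 and 1.07 CPM in CF (log2FC -2.76 ± 0.50, adjusted p = 0.00908). MX1, an antiviral GTPase, was at 6.11, 8.35, 8.88 and 9.03 CPM in WT and 3.38, 4.16, 3.99 and 3.56 CPM in CF (log2FC -1.09 ± 0.20, adjusted p = 0.0104). ISG15, a ubiquitin-like modifier, was at 1.1, 0.864, 2.47 and 0.993 CPM in WT and 0.258, 0.267, 0.38 and 0.214 CPM in CF (log2FC -2.22 ± 0.45, adjusted p = 0.0137).

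IFIT2 (log2FC -0.98 ± 0.22, adjusted p = 0.0194), OAS1 (log2FC -0.96 ± 0.22, adjusted p = 0.0236), DDX58 (log2FC -0.80 ± 0.20, adjusted p = 0.0327), the RNA sensor RIG-I, and IFIT5 (log2FC -0.35 ± 0.10, adjusted p = 0.041) made up the 7. IRF9, a subunit of the factor that mediates type I interferon signals, was higher, at 16.4, 18.6, 16.1 and 18.2 CPM in WT and 29.4, 31.7, 25.5 and 24.3 CPM in CF (log2FC 0.67 ± 0.12, adjusted p = 0.00882). CXCL9 and IRF9 stayed called without each library. Calls lost were MX1 (CF80-2), ISG15 (WT80-1, CF80-2), IFIT2 (WT80-1, WT80-2, CF80-1, CF80-2), OAS1 (WT65-2, WT80-1, CF65-1, CF80-1, CF80-2), DDX58 (any but WT65-1 and CF65-2) and IFIT5 (any but CF65-2 and CF80-1). The number called lower was 1 without CF day 80 replicate 2, 2 without WT day 80 replicate 1, and 4 to 8 without 1 of the others.

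Of 21 inflammatory and defence genes 0 were called in either direction by edgeR (1 higher and 3 lower at an unadjusted p under 0.05, and 0 and 2 by DESeq2), with a median of 0.00. Values of genes with a place in lung inflammation were 15.2 to 20.4 CPM in WT and 13.7 to 41.5 CPM in CF for C3 (log2FC 0.31 ± 0.29, adjusted p = 0.497), 1.8 to 2.76 CPM in WT and 1.12 to 4.75 CPM in CF for CHI3L1 (log2FC 0.27 ± 0.33, adjusted p = 0.605) and 63 to 144 CPM in WT and 11.9 to 92 CPM in CF for CXCL10 (log2FC -1.32 ± 0.54, adjusted p = 0.129). CXCL11 (log2FC -1.14 ± 0.44, adjusted p = 0.115), CXCL8 (log2FC -0.12 ± 0.63, adjusted p = 0.916), KNG1 (log2FC -2.61 ± 0.79, adjusted p = 0.0563) and WFDC2 (log2FC -0.91 ± 0.52, adjusted p = 0.265) were not called. T cell genes CD3D (log2FC -2.21 ± 0.61, adjusted p = 0.0409) and CD3G (log2FC -1.82 ± 0.43, adjusted p = 0.0241) were the 2 lower of 14 lymphoid genes (14.3%, against 4.74% of all genes). Neither call held without each library, CD3D (any but WT65-1 and CF65-2) and CD3G (WT65-2, WT80-1, CF65-1, CF80-1, CF80-2), and at equal depth CD3G had an adjusted p of 0.0839. Of 17 macrophage and myeloid genes CD68 (log2FC 0.78 ± 0.12, adjusted p = 0.00416) and LYZ (log2FC 2.11 ± 0.51, adjusted p = 0.0265) were higher, or 11.8% against 10.4% of all genes, where the list's median was -0.39, and of these CD68 stayed called throughout while LYZ (WT80-1, WT80-2, CF65-1, CF80-1, CF80-2) did not.

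Epithelial genes were read in groups from the distal tips to the conducting airway. Of 23 distal tip progenitor genes 4 (17.4%, against 10.4% of all genes) were higher and 0 lower by edgeR (11 and 1 at an unadjusted p under 0.05, and 5 and 1 by DESeq2), with a median of 0.34. ETV4, a transcription factor downstream of FGF signalling, was at 28.1, 42.5, 35.5 and 34.2 CPM in WT and 56.3, 70, 56.1 and 73.1 CPM in CF (log2FC 0.86 ± 0.15, adjusted p = 0.00856). SOX9, a factor of the tips and of cartilage, was at 78.4 to 127 CPM in WT and 133 to 176 CPM in CF (log2FC 0.63 ± 0.16, adjusted p = 0.0349). The SOX9 call was lost with the replicate block (adjusted p = 0.0566) and without any library but WT65-2 and CF65-2. The count of higher members ranged from 1 without WT80-1 to 6 without CF65-2, and ETV4 alone stayed called throughout. ETV5, a factor of the same family as ETV4, was at 283 to 377 CPM in WT and 223 to 421 CPM in CF (log2FC -0.11 ± 0.15, adjusted p = 0.666).

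Surfactant protein SFTPD was the 1 gene of 15 in the alveolar type 2 list that was called, at 1.26, 0.461, 6.26 and 4.02 CPM in WT and 3, 3.79, 9.79 and 20.7 CPM in CF (log2FC 1.76 ± 0.37, adjusted p = 0.0159), a call lost without WT day 80 replicate 2 or CF day 80 replicate 2. The list's share was 6.67%, against 10.4% of all genes, and 4 members were called higher without CF65-2. SFTPB (log2FC -0.18 ± 0.24, adjusted p = 0.639), SFTPA1 (log2FC 1.28 ± 0.81, adjusted p = 0.311) and SFTPC (log2FC -0.36 ± 0.23, adjusted p = 0.315) were not called, nor was TJP1, a tight junction protein (log2FC 0.01 ± 0.15, adjusted p = 0.966).

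Markers of conducting airway varied among WT libraries. The summed CPM of 24 motile cilia genes was 764, 191, 317 and 523 in WT and 271, 241, 264 and 257 in CF, and the median log2FC was -1.22. By edgeR 1 gene, RSPH9, was called lower (log2FC -0.85 ± 0.23, adjusted p = 0.0402), or 4.17% against 4.74% of all genes. Without WT day 65 replicate 2, the WT library with the lowest sum, 16 of them were called lower, where 687 of 19769 genes were. Of 10 airway secretory genes SPDEF, a factor of mucous cells, was the 1 called (log2FC -1.49 ± 0.35, adjusted p = 0.0241), against 4.74% of all genes. The sums were 49.9 to 269 in WT and 34.0 to 78.7 in CF, with a median of -1.23, and 5 were called lower without WT day 65 replicate 2. Neither list had a call without any library other than WT day 65 replicate 2 or CF day 65 replicate 2.

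KRT5, a keratin of basal cells, was at 15.9, 0.173, 1.45 and 4.45 CPM in WT and 0.873, 0.226, 0.127 and 0.117 CPM in CF (log2FC -4.19 ± 1.09, adjusted p = 0.0343), the 1 of 9 basal cell genes called (11.1%, against 4.74% of all genes). The list's median was -1.69, but its summed CPM overlapped between groups, at 129 to 195 in WT and 108 to 157 in CF. Its call was lost without any library other than WT day 65 replicate 2 and CF day 65 replicate 2. Without WT day 65 replicate 1, its highest library, adjusted p was 0.226. SOX2, a factor of proximal airway epithelium chosen after its values were seen, was at 35.9 to 71 CPM in WT and 18.1 to 33.2 CPM in CF (log2FC -0.88 ± 0.16, adjusted p = 0.0095). The cilia and secretory sums thus differed several-fold among WT libraries, and the part of airway content in the values of CFTR, CLCA1, WFDC2 and SPDEF was not tested.

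Cell cycle genes were called in 1 direction, with 4 of 44 lower (9.09%, against 4.74% of all genes) and 0 higher by edgeR and a median of -0.14 (11 lower and 2 higher at an unadjusted p under 0.05). These were the kinase CDK1 (log2FC -0.58 ± 0.11, adjusted p = 0.0127), the kinetochore protein NDC80 (log2FC -0.51 ± 0.10, adjusted p = 0.0129), the checkpoint protein MAD2L1 (log2FC -0.59 ± 0.16, adjusted p = 0.0343) and the replication clamp PCNA (log2FC -0.55 ± 0.16, adjusted p = 0.0465). None of the 4 calls was kept without each library in turn: CDK1 (WT80-2), NDC80 (WT80-2, CF65-1), MAD2L1 (any but WT65-1 and CF65-2) and PCNA (any but WT65-1 and CF65-2). The count of lower members ranged from 0 without WT80-2 to 6 without CF65-2.

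Calls in the remaining lists are to be read against the 10.4% higher and 4.74% lower of all genes. Alveolar type 1 genes had 1 of 14 higher, VEGFA, and a median of -0.18. Erythroid genes had 1 of 14 higher, SPTB, and complement genes had MASP2 higher and CD59 lower of 23. Skeletal or heart muscle genes had 3 of 10 higher (MYBPC3, ACTN2 and RYR2) and TNNI3 lower, and these shares of 30% and 10% exceeded those of all genes. Hypoxia and glycolysis genes had 2 of 28 higher and 1 lower, immediate early genes had 2 of 21 higher and 0 lower by edgeR (3 and 2 at an unadjusted p under 0.05, and 3 and 1 by DESeq2), and heat shock genes had 1 of 17 in each direction. Calls lost without a library were VEGFA (CF65-1), SPTB (WT80-1, WT80-2, CF65-1, CF80-1, CF80-2), CD59 (any but WT65-1 and CF65-2), RYR2 (WT80-1, WT80-2, CF80-2) and TNNI3 (WT65-2, WT80-2, CF65-1, CF80-1, CF80-2). The same was true of BNIP3 (any but CF65-2 and CF80-1) and PGAM1 (any but CF65-1 and CF65-2) in the hypoxia list, JUNB (any but CF65-2 and CF80-1) and EGR3 (any library) in the immediate early list, and HSPB1 (any but CF65-2 and CF80-1) and DNAJB9 (WT65-2, WT80-1, WT80-2, CF65-1, CF80-2) in the heat shock list.

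Glucocorticoid response genes had 1 of 13 in each direction, GGT5 higher and HSD11B1 lower. The call of HSD11B1 (any but WT65-2 and CF65-2) was also lost at equal depth (adjusted p = 0.0681). Kinesins had 3 of 38 in each direction (7.89%), of which the higher count was 2 to 4 and the lower count 0 or 1 on leaving out a library. Neuroendocrine and neural genes had 0 of 19 called by edgeR (0 higher and 1 lower at an unadjusted p under 0.05 and by DESeq2), mast cell genes 0 of 4 (again 0 and 1 by both) and mesothelial genes 0 of 4 (0 and 0 by both).

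The changes at 65 and 80 days were compared with a genotype by day term. By edgeR 0 genes passed an adjusted p of 0.05 (the smallest was 0.0825), 3002 had an unadjusted p under 0.05, and DESeq2 called 413. All 71 DEGs had the same sign at both days, but they were chosen on both days together, and the choice itself favoured this. Of the 71, 6 had an unadjusted p under 0.05 for the term, against 3002 of all 18812 genes. Within 1 day, edgeR gave 0 DEGs at day 65 (1654 calls at an adjusted p of 0.05 and 5254 genes at an unadjusted p under 0.05) and 0 at day 80 (1803 and 5521).

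The same 71 genes were then followed in the other libraries. In proximal lung of the same fetuses, all 61 higher and all 10 lower DEGs were called in the same direction at an adjusted p of 0.05, against 11.2% and 8.67% of all genes, and their median log2FC were 1.35 and -2.42. In distal lung at 100 and 120 days, from fetuses of other ages, all 61 and all 10 were again called, against 13.0% and 8.65%, with medians of 1.39 and -2.59. In the labels, WT day 65 replicate 2 and CF day 100 replicate 2 carry the same animal name. All 71 were also called at equal depth in both sets, where the CF libraries as deposited were again deeper than the WT libraries.

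At term the CF and WT distal libraries had like depth, between 115937437 and 126749480 reads, with 2 libraries a genotype. There, 1 of the 61 higher DEGs, MYBPC3, was called by edgeR (adjusted p = 0.0447), against 0.0809% of all genes. Of the 61, 53 had the same sign, 23 of them at an unadjusted p under 0.05, and the median was 0.55. Of all 18546 genes, 3245 had such a p in either direction. By edgeR 0 of the 10 lower DEGs were called (0 were lower at an unadjusted p under 0.05), against 0.0755% of all genes. The lower DEGs had a median of 0.41 at term, where 4 of 10 had the same sign.

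CDR1 is an example of a lower DEG with the opposite sign at term. On the scale of all 20 distal libraries it was at 37.2 and 45.6 CPM in WT at 120 days and at 0.124 and 0.0703 in WT at term, against 4.68 and 2.03 and then 0.416 and 0.877 in CF. GGT5 kept its direction, at 29.0 and 37.6 CPM in WT and 72.3 and 98.9 in CF at term. CFTR was at 10.5 and 12.8 CPM in WT and 3.69 and 4.90 in CF at term.

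The medians of the smooth muscle and ribosomal protein lists had the opposite sign at term, -0.71 and 0.89, where 9 of 13 and 0 of 73 genes were negative. By edgeR 0 genes of either list were called there, while 5 smooth muscle genes were lower and 39 ribosomal protein genes higher at an unadjusted p under 0.05. Of all 18546 genes tested at term, 3245 had such a p in either direction. ACTA2 at term was at 404 and 409 CPM in WT and 178 and 91.2 in CF. RPL39 was at 504 and 847 CPM in WT and 1147 and 1652 in CF. Depth, the stage of the lung and the small number of libraries all differ between term and the earlier days, and their parts in these values cannot be told apart.

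**Figure D4:**
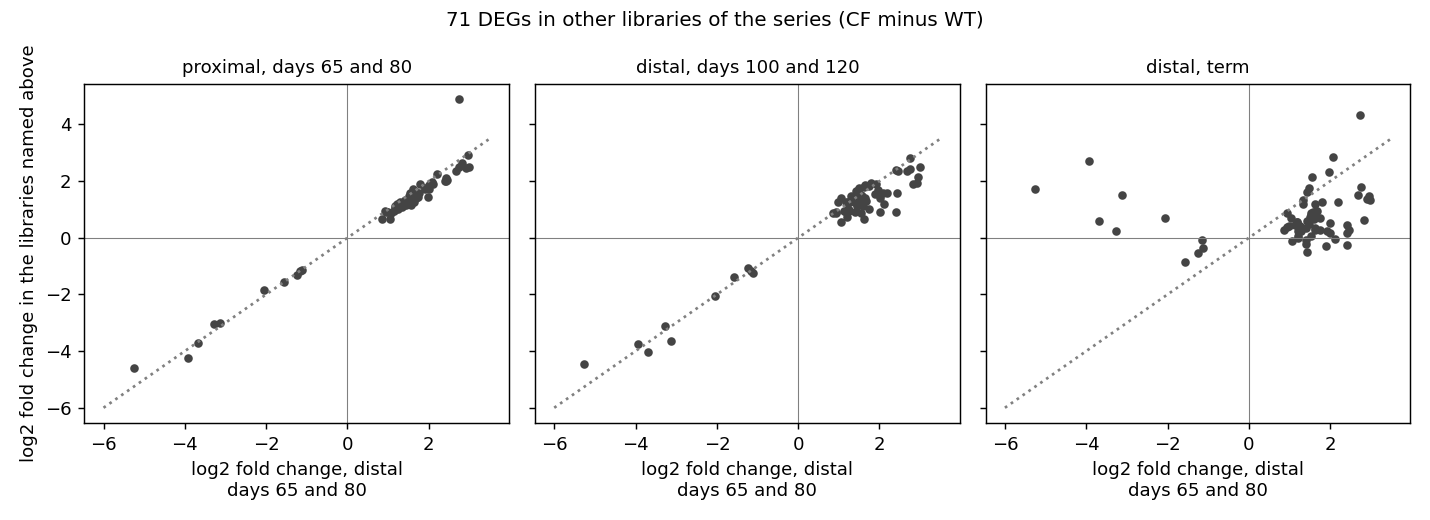
Log2 fold change (CF minus WT) of the 71 DEGs at 65 and 80 days in distal lung (x axis) against that in proximal lung at 65 and 80 days, distal lung at 100 and 120 days and distal lung at term (y axis), 1 point for each gene, with a dotted line where both are equal. All points keep their sign in the first 2 panels, and at term 53 of 61 higher and 4 of 10 lower DEGs do.

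**Figure D5:**
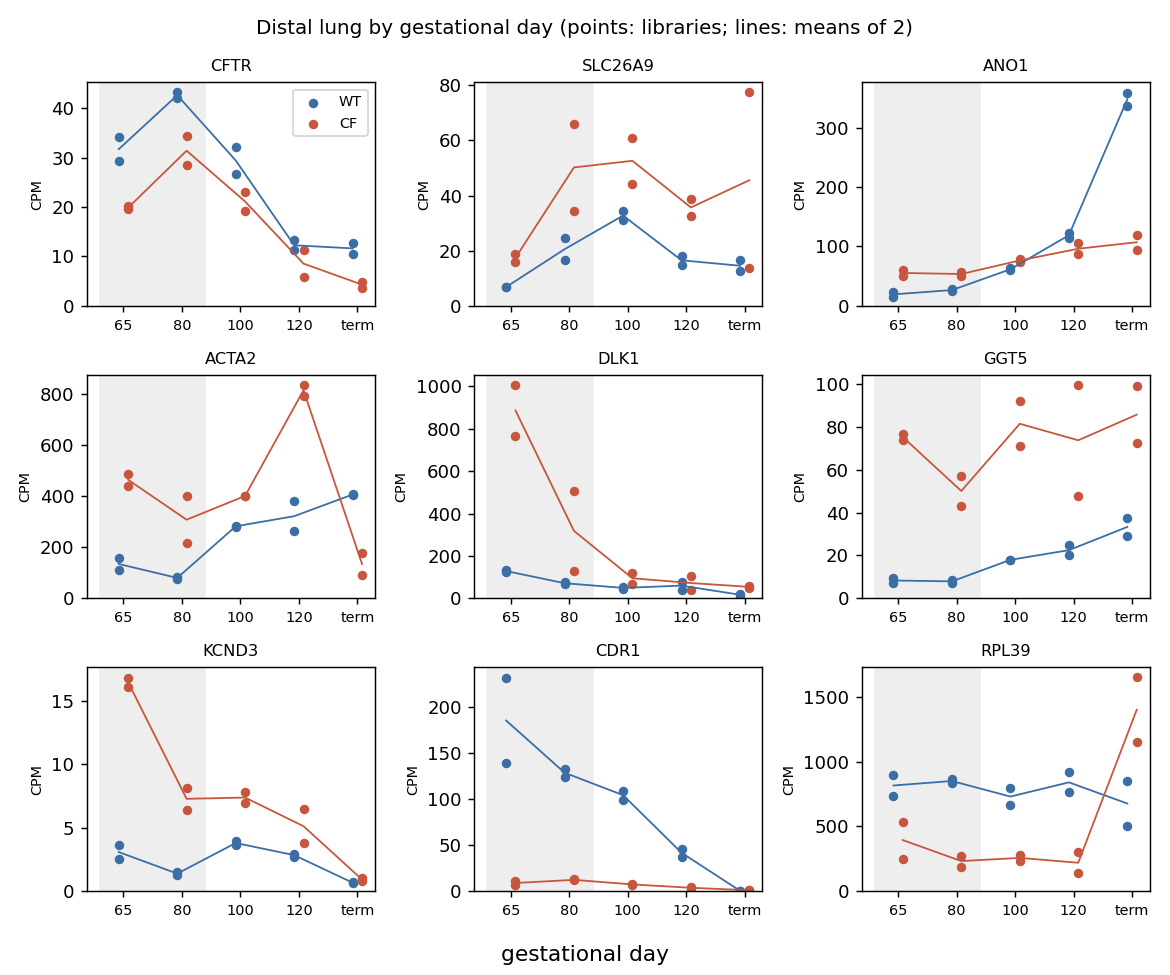
CPM of 9 genes in distal lung from 65 days to term, scaled over all 20 distal libraries, with points for libraries and lines through the means of 2, WT in blue and CF in red; days 65 and 80 are shaded. CFTR is lower in CF at term (3.69 and 4.90 CPM against 10.5 and 12.8), CDR1 in WT falls to 0.124 and 0.0703 CPM at term, and ACTA2 and RPL39 change their order between genotypes at term.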

How the data were processed

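The cDNA was primed with oligo-dT and sequenced as paired 100 bp reads. Per the labels, the authors aligned reads with STAR (2.6 in the processing notes) to Oar_v4.0 and deposited raw counts per gene made with featureCounts 1.6.3 (Subread). Which annotation release was used, whether strand was counted and how mates were treated is not given in the sources used here. In each library 75.6% to 82.2% of the gene counts from 1 to 20 were even, a pattern of mates counted apart. A read pair may thus stand as 2 counts. From the deposited counts, genes were kept with filterByExpr (minimum count 10, minimum total 15), scaled by TMM and tested with edgeR 4.0.16 (R 4.3.3, limma 3.58.1) by the quasi-likelihood F test, genotype with day as covariate, with Benjamini-Hochberg adjustment over 18812 of 24478 genes. SE is the size of the log2 fold change divided by the square root of F. DESeq2 1.42.0, other scalings, filters, equal depth by thinning and leaving out each library were alternatives. The procedure was tested on simulated data.

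Depth was 33049603 to 103139483 counts per library, and for genes with many reads counting error at this depth is small against the spread between fetuses. For genes near the floor in CF or WT, such as PENK, LOC101111669, LOC105603269 and ISG15, it is not, and the size of the change is loosely fixed. Libraries were grouped by genotype and day from the labels. Named genes were, by rule, up to 12 DEGs in each direction of largest change that had a symbol, an average log2 CPM of at least 1, no overlap within either day and a DEG call at equal depth too (3 lower genes met it), CFTR, up to 4 called members of each list in each direction, and genes the study names. The members and lists were chosen with earlier results of these data known, and the hedgehog, WNT and splicing lists and further lower genes and called list members beyond these were named after values were seen. Symbols are as in the count table, of which 18636 matched a RefSeq table (names only). Columns of other tables, 32 in all, were not used. The main fit did not pair libraries by replicate number, and a block for day and replicate number was run as an alternative. Deviations of same-numbered CF and WT libraries correlated at 0.288 at day 65 and 0.0135 at day 80. With 2 pairs a day, these values cannot show whether the numbers pair libraries. Some list members are not reported here.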

Additional observations from a re-analysis of the deposited data

How the results depend on the processing

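All 71 DEGs stayed at an adjusted p of 0.05 or less in every alternative run, except that 2 were not tested when an average log2 CPM of at least 1 was required. No call reversed its direction in any alternative. Other log2 fold changes and list counts, 215 results with 4931 values under 23 alternatives, gave 1001 weaker, 98 stronger and 61 moved values. The number of DEGs (71) and of genes at an adjusted p of 0.05 (2845) depended on the setting.

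With the replicate block, 0 DEGs and 2200 calls were found by edgeR (5687 genes at an unadjusted p under 0.05), and CFTR was at -0.56 (adjusted p = 0.0332). Of the 2845 calls of the main fit, 2057 remained with the block, and those of CD3D, CD3G and CD59 were among the calls lost. Leaving out 1 library gave 0 to 186 DEGs and 1100 to 4396 calls: 5, 0, 0 and 1 DEGs without the WT libraries in order and 0, 186, 2 and 0 without the CF libraries. CFTR then ranged from -0.65 to -0.50. DEGs numbered 60 at equal depth and 57 with upper quartile scaling. They numbered 151 with scaling by totals only, 210 with no filter, 187 with the length trend removed, 380 with all 20 distal libraries in the fit and 1444 with DESeq2, which made 4653 calls, 2572 higher and 2081 lower. With glmTreat there were 0 DEGs and 397 calls (2063 genes at an unadjusted p under 0.05), and each day alone gave 0 DEGs, with 1654 and 1803 calls.

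The share of calls that were higher was 68.7%, against 58.4% with upper quartile scaling (1746 higher, 1243 lower), 81.6% with totals only (2592 and 584, where the median of all genes was at 0.106) and 50.3% with the length trend removed (2103 and 2080). CFTR lost its call with totals only (-0.46, adjusted p = 0.0570), glmTreat (-0.56, adjusted p = 1), all 20 libraries (-0.56, adjusted p = 0.0552) and day 80 alone (-0.45, adjusted p = 0.107). The genotype by day term gave 0 genes by edgeR with filter, 1 with no filter, 1 at equal depth and 413 with DESeq2.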
